A study of Mus musculus with 4 samples.

Results

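The transcripts described here were those of 42 genes of glycolysis and of the response to low oxygen, out of 15803 genes in the expression table. They were listed by name for their known roles in both pathways, with earlier results of these data known. All 42 were found in the table and passed the filter on low values (a mean of at least 10). A total of 26 belong to glucose uptake, glycolysis, lactate handling and the entry of pyruvate into mitochondria, and 16 to the hypoxia response outside glycolysis. RNA-seq had been carried out on the microdissected region of the second heart field (SHF), the cardiac progenitors that lie behind the early heart tube, of E8.5 mouse embryos. There were 2 libraries of Hoxb1 mutant embryos (Hoxb1Mu, named Hoxb1-/- in the study's methods) and 2 of wild-type (WT) embryos, and no agent was given to either group. Per the study's methods, which call the tissue the pharyngeal region, each replicate was made from the pooled RNA of several embryos. Whether both pools of a genotype came from separate embryos is not stated, so p-values measure only the spread between these libraries. Hoxb1 was lost in the whole embryo and not in the SHF alone. The comparison asked which transcripts of these pathways differ in the region when Hoxb1 is lost.

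Glycolysis turns glucose into pyruvate in the cytoplasm, and lactate dehydrogenase can turn that pyruvate into lactate, which leaves the cell through monocarboxylate transporters. Cells of the early mouse embryo rely strongly on this route, and the heart turns to mitochondrial oxidation as cardiomyocytes mature. The hypoxia-inducible factors (HIF) are pairs of an alpha and a beta subunit. With oxygen, prolyl hydroxylases mark the alpha subunit for degradation, and in low oxygen it accumulates and raises the transcription of its targets, among them most enzymes of glycolysis. HIF is controlled mainly at the level of protein, which these data do not show.

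The libraries held 31711309 and 34383760 reads in Hoxb1Mu, against 31331595 and 34244827 reads in WT, on the genes of the table. Values below are normalised counts, that is, reads divided by the size factor of their library. Hoxb1 itself had 137 and 167 normalised counts in Hoxb1Mu, against 682 and 617 in WT, so all libraries matched their labels. The SHF marker list was detected in every library (12 of 12 genes), and its median log2 fold change was 0.03. In 3 of its genes both Hoxb1Mu libraries lay above both WT libraries, in 2 both lay below, and in 7 the groups overlapped. Single genes differed, with Hoxb1 itself at -2.09, Foxf1 at -0.36 and Tbx1 at 0.50. Markers of 2 other cell types in the dissection differed throughout. All 20 cardiomyocyte markers were higher in both Hoxb1Mu libraries, with a mean level of 0.66 and 0.78 above the WT mean in log2 units, against 0.04 and -0.04 in WT. All 19 measured yolk sac endoderm markers were lower, with 0.315% and 0.160% of all reads in Hoxb1Mu, against 0.475% and 0.465% in WT. DESeq2, a test described below, called 12 of the 17 cardiomyocyte markers with an adjusted p higher. It called 0 of the 17 such yolk sac endoderm markers lower, and these stood much lower in Hoxb1Mu 2 than in Hoxb1Mu 1. Of 11 neural crest markers, 7 lay above WT, 1 lay below and 3 overlapped, and DESeq2 called 6 higher. It called 2.01% of all genes higher and 2.71% lower. Primitive red blood cell markers made up 0.0099% and 0.0034% of reads in Hoxb1Mu, against 0.0021% and 0.0502% in WT, so that this list set the WT libraries far apart and did not separate the groups. In bulk tissue, a change in the number of cells of a type and a change in RNA per cell cannot be told apart.

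The enzymes of glycolysis and the listed HIF targets outside glycolysis were mostly higher in Hoxb1Mu. Both glucose transporters, the lactate transporter Slc16a1 and Hif1a were lower. HIF targets among the glycolysis genes, higher or lower, were not listed apart, so HIF targets as a whole are not described here. Of the 42 genes, 32 had a log2 fold change (Hoxb1Mu over WT) above 0 and 10 below 0. In 28 both Hoxb1Mu libraries lay above both WT libraries, in 6 both lay below, and in 8 the groups overlapped. Among all tested genes, 26.4% lay above and 27.1% below in this way. The 42 genes were chosen with earlier results of these data known, so such shares of all genes describe the list and do not test it. The median log2 fold change of the 42 genes was 0.24, beside 0.00061 for all 15760 tested genes. It was 0.20 for the 26 genes of glycolysis (17 above, 5 below and 4 overlapping) and 0.30 for the 16 others (11 above, 1 below and 4 overlapping).

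How many of these differences passed a test depended on the tool. limma on log2 values, the main test, called 0 of the 42 genes at an adjusted p under 0.05, as it called 0% of all genes, and the smallest adjusted p was 0.098, for Pfkp. At an unadjusted p under 0.05, limma had 25 of them higher and 5 lower, where 8.80% of all genes were higher and 9.82% lower. The edgeR quasi-likelihood test on the recovered reads also called 0 (0% of all genes, smallest adjusted p 0.0917). The study's methods name edgeR on another count table and, as do the processing notes, DESeq2. DESeq2 on the same reads called 17 of the 41 genes that it gave an adjusted p. It called 13 higher, where it called 2.01% of all genes higher, and 4 lower, where it called 2.71% lower. Most members are abundant, and abundant genes were called more often. Among all genes with a mean of at least 1000 DESeq2 called 5.83% in either direction, and among the 33 members of that abundance it called 16 (12 higher, 4 lower). The DESeq2 calls also leaned on single libraries. It called 19, 5, 13 and 4 members without Hoxb1Mu 1, Hoxb1Mu 2, WT 1 and WT 2 in turn, and only Pfkp and Pdk1 were called in each of these 4 fits. Aldoa and P4ha2 were called in 3 of the 4. Without WT 2, DESeq2 gave only 36 members an adjusted p. Below, "called" means called by DESeq2 with all 4 libraries. It does not say that the call held with a library left out, also where this is not repeated for a gene. Log2 fold changes with their SE are those of limma.

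**Figure D1:**
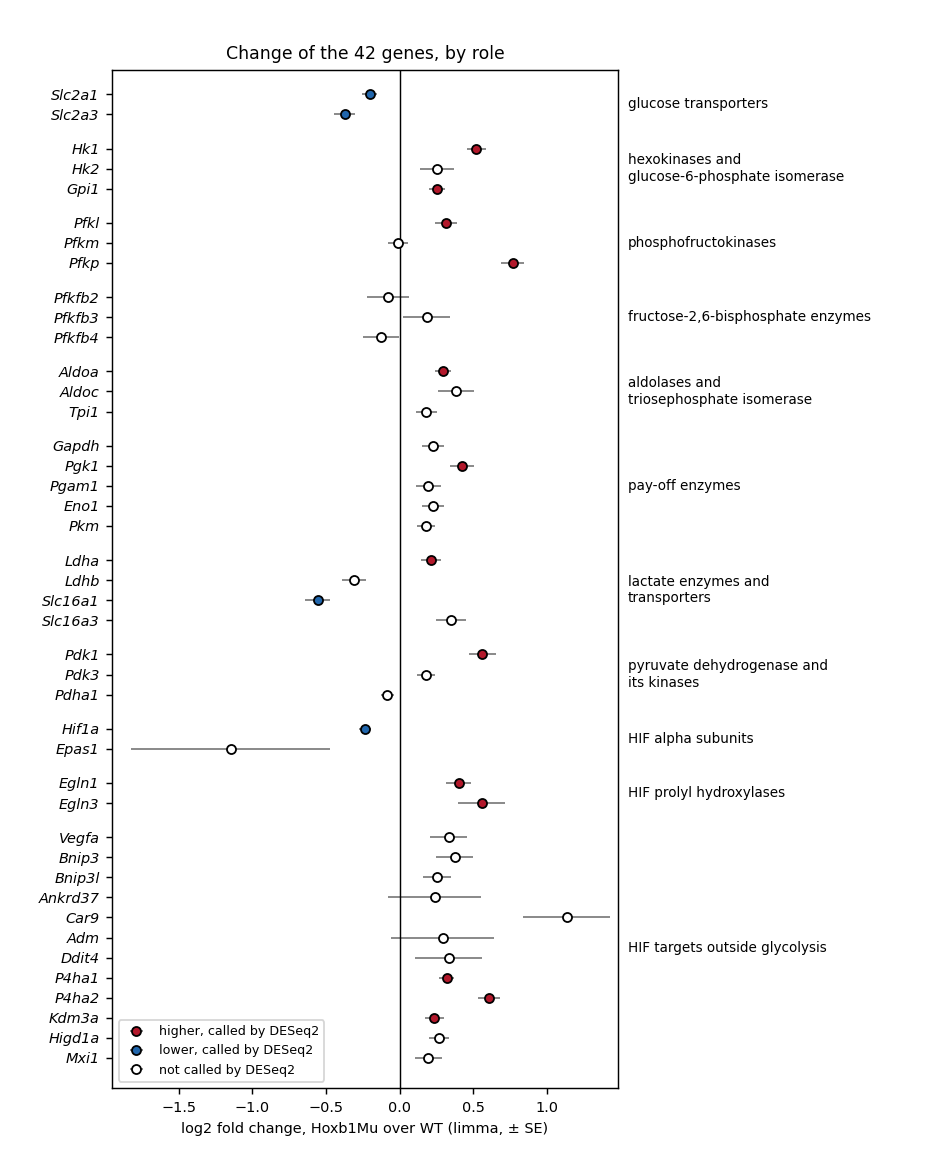
Log2 fold change (Hoxb1Mu over WT, limma, horizontal axis) of the 42 genes, ordered by role from top to bottom. Bars are 1 SE, and filled points mark the 13 genes called higher and the 4 called lower by DESeq2, while limma called 0 of them. The path enzymes and the HIF targets outside glycolysis lie mostly right of 0, and Slc2a1, Slc2a3, Slc16a1 and Hif1a lie left of it.

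The sequence before the start of a gene is where HIF can bind, at the core ACGTG or GCGTG. This core was searched on both strands in the 250 bases before each RefSeq start (GRCm38.p6), and a gene counted as holding it when any of its listed starts did. Of the 39 members with an entry, 37 held the core (94.9%), compared with 60.1% of the 11319 tested genes with an entry. Slc2a3, Epas1 and Bnip3l had no entry. Many members are listed as known HIF targets, so this difference describes the choice of genes. Since nearly all members held the core, it could not separate those called higher (12 of 13) from those called lower (3 of 3) or not called (22 of 23). The palindrome CACGTG, which contains ACGTG on both strands and is also the letters of the E-box bound by Myc and related factors, was in 7 of 39 members (17.9%) and in 9.74% of all genes. It was in 1 of 13 members called higher, 2 of 3 called lower and 4 of 23 not called, counts too small to compare. A match of letters is not a bound site. The upstream sequences of the 2 genes called in each fit, of the HIF target P4ha2 and of a gene called lower, Slc16a1, are shown to compare the placing of the core in genes that moved in opposite directions. Each runs 5' to 3' toward the start of its gene, and capitals mark the core on either strand (CACGT and CACGC are its reverse complements).
Pfkp, chr13:6648772-6649021, minus strand: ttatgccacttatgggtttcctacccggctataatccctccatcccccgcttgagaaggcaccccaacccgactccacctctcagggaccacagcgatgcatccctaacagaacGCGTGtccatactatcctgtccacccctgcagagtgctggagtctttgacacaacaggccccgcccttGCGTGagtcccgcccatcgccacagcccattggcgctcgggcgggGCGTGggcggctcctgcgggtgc
Pdk1, chr2:71872974-71873223, plus strand: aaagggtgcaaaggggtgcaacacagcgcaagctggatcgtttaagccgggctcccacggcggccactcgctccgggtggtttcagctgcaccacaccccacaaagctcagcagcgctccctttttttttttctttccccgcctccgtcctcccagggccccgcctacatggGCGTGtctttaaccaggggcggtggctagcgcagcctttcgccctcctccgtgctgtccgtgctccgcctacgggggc
P4ha2, chr11:54100674-54100923, plus strand: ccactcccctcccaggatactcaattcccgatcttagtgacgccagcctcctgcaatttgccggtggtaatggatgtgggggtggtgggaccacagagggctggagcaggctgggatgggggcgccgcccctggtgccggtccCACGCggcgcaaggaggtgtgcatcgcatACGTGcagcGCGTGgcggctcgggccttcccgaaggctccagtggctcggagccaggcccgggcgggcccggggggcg
Slc16a1, chr3:104638414-104638663, plus strand: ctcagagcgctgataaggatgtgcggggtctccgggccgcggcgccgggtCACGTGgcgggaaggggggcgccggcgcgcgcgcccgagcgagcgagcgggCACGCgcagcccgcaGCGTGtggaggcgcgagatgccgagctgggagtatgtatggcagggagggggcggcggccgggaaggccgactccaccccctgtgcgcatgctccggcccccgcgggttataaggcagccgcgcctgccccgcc
Pfkp and P4ha2 held 3 cores each, Pdk1 held 1, and Slc16a1 held 4, counting both strands of its E-box palindrome. Pdk1 has 2 listed starts, and the one with more cores is shown. The sequence before its other start (chr2:71874654-71874903) held 0.

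Glucose enters cells through the facilitative transporters GLUT1 (Slc2a1) and GLUT3 (Slc2a3), and both were lower in Hoxb1Mu. Slc2a1 (chr4:119108711-119137983, mm10) had 48001 and 45388 normalised counts in Hoxb1Mu, against 55104 and 52410 in WT, a log2 fold change of -0.20 ± 0.05 (DESeq2 adjusted p = 0.0053). Slc2a3 (chr6:122727809-122801640) had 94742 and 82638 in Hoxb1Mu, against 117532 and 111819 in WT, a change of -0.37 ± 0.07 (DESeq2 adjusted p = 2.00e-05). Both genes were lowest in Hoxb1Mu 2, and no Hoxb1Mu library reached a WT library. Together they took 0.439% and 0.395% of all reads in Hoxb1Mu, against 0.519% and 0.499% in WT. Each of these calls was made in 2 of the 4 fits that left out a library. The yolk sac endoderm markers were also lower and lowest in Hoxb1Mu 2, and their part in these differences was not tested.

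Hexokinase traps glucose by phosphorylation, and phosphoglucose isomerase (Gpi1) turns the product into fructose phosphate. Hk1, the broadly expressed hexokinase, had 1478 and 1517 normalised counts in Hoxb1Mu, against 1067 and 1021 in WT, so that it was 1.43-fold higher (log2 fold change 0.52 ± 0.07, DESeq2 adjusted p = 0.00015). Hk2, an isoform that HIF induces, had 10886 and 14129 in Hoxb1Mu, against 10601 and 10232 in WT, and was not called (0.25 ± 0.12, DESeq2 adjusted p = 0.53). Hoxb1Mu 1 lay close to WT for Hk2, and the higher mean rested on Hoxb1Mu 2 (log2 fold change 0.064 without it). Per kilobase of exon, Hk2 was the main isoform in all libraries, and Hk1 made up 8.67% and 6.99% of their sum in Hoxb1Mu, against 6.58% and 6.52% in WT. Gpi1 had 13100 and 14192 in Hoxb1Mu, against 11666 and 11184 in WT, and was called (0.26 ± 0.05, DESeq2 adjusted p = 0.0025).

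Phosphofructokinase commits sugar to glycolysis, and its 3 genes gave unlike values. Pfkp (chr13:6579768-6648777), the platelet-type subunit, had 2981 and 3330 normalised counts in Hoxb1Mu, against 1770 and 1930 in WT. It was 1.71-fold higher, the largest fold among the called genes of the 42 (log2 fold change 0.77 ± 0.08, DESeq2 adjusted p = 4.52e-12). Pfkl, the liver-type subunit, had 29538 and 32371 in Hoxb1Mu, against 26388 and 23420 in WT, and was called (0.31 ± 0.07, DESeq2 adjusted p = 0.0016). Pfkm, the muscle-type subunit, had 2319 and 2362 in Hoxb1Mu, against 2491 and 2239 in WT, with a difference near 0 (-0.013 ± 0.069), and its groups overlapped. Per kilobase of exon, Pfkp made up 4.16% and 4.28% of the 3 genes' sum in Hoxb1Mu, against 2.73% and 3.33% in WT, and Pfkm 13.0% and 12.2%, against 15.4% and 15.5%. Pfkl held the rest and was the main subunit throughout. The exons of Pfkp overlap the gene Pitrm1 on the opposite strand, so its reads are not all certain to be its own. Of its 50-base words, 17.1% also occur in transcripts of 1 other gene. Words were matched on both strands, so these need not be separate limits. Exons of the called genes Slc2a1 (Gm12868), Hk1 (Hk1os), Gpi1 (Gm26762) and Aldoa (Fam57b) also overlap a gene on the opposite strand. So do those of Pfkm (Senp1), Tpi1 (Spsb2), Gapdh (Iffo1), Pdha1 (Map3k15) and some other members not called. The same uncertainty holds for their reads.

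Pfkfb2, Pfkfb3 and Pfkfb4 make and remove the fructose bisphosphate that activates phosphofructokinase. None was called, and all 3 overlapped between groups. Pfkfb3, the highest of them per kilobase of exon, had 3492 and 4723 normalised counts in Hoxb1Mu, against 3967 and 3226 in WT (log2 fold change 0.18 ± 0.16). Pfkfb2 (197 and 210 in Hoxb1Mu, against 200 and 231 in WT) and Pfkfb4 (324 and 338, against 331 and 393) had lower counts.

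Aldolase splits the sugar, and triosephosphate isomerase (Tpi1) makes both products usable. Aldoa had 40865 and 43189 normalised counts in Hoxb1Mu, against 35380 and 33187 in WT, and was called (log2 fold change 0.29 ± 0.05, DESeq2 adjusted p = 2.10e-05). Aldoc, which was less than 1% of the aldolase sum in every library, had 269 and 284 in Hoxb1Mu, against 205 and 218 in WT, and was not called (0.38 ± 0.12, DESeq2 adjusted p = 0.41). Tpi1 had 28658 and 29127 in Hoxb1Mu, against 27321 and 23772 in WT, and was not called (0.18 ± 0.07, DESeq2 adjusted p = 0.13). For Tpi1 WT 1 lay close to Hoxb1Mu and WT 2 apart from it (log2 fold change 0.081 without WT 2).

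The 5 enzymes that follow, in which ATP is gained, were all above WT in both Hoxb1Mu libraries. Pgk1, phosphoglycerate kinase, had 2969 and 2961 normalised counts in Hoxb1Mu, against 2381 and 2052 in WT, and was the only one called (log2 fold change 0.42 ± 0.08, DESeq2 adjusted p = 0.0016). The other four had log2 fold changes between 0.18 and 0.23 and DESeq2 adjusted p between 0.0513 and 0.41. They were Gapdh (6542 and 6961 in Hoxb1Mu, against 5394 and 6174 in WT), Pgam1 (1331 and 1529, against 1224 and 1272), Eno1 (22103 and 25345, against 21039 and 19494) and Pkm, pyruvate kinase (104708 and 109659, against 99745 and 90119). Several of these genes have many processed pseudogenes. The share of their 50-base words that also occurs in other genes' transcripts was 82.5% for Gapdh, 72.2% for Eno1, 68.0% for Pgk1, 41.5% for Pgam1 and 34.4% for Pkm, so their counts depend on how the authors' counting treated shared reads and are uncertain. Outside these 5 enzymes, the share was 62.4% for Bnip3, 36.6% for Higd1a, 27.0% for Ldhb and 25.3% for Gpi1. It was 25.1% for Pfkfb2, 23.4% for Bnip3l, 16.9% for Pdha1, 16.6% for Ldha and 13.5% for Aldoa. The same uncertainty holds for the counts of these genes.

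From hexokinase to lactate dehydrogenase, 14 of the 16 enzyme genes lay above WT in both Hoxb1Mu libraries, 1 (Ldhb) lay below and 1 (Pfkm) overlapped. Of all tested genes 26.4% lay above in this way. DESeq2 called 7 of the 16 higher and 0 lower, beside 2.01% of all genes called higher and 5.83% called in either direction at a mean of at least 1000. The median log2 fold change of the 16 was 0.24. Summed, they took 1.09% and 1.16% of all reads in Hoxb1Mu, against 0.983% and 0.904% in WT. The gap between the nearest libraries of both groups was wider than the difference within either group.

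**Figure D2:**
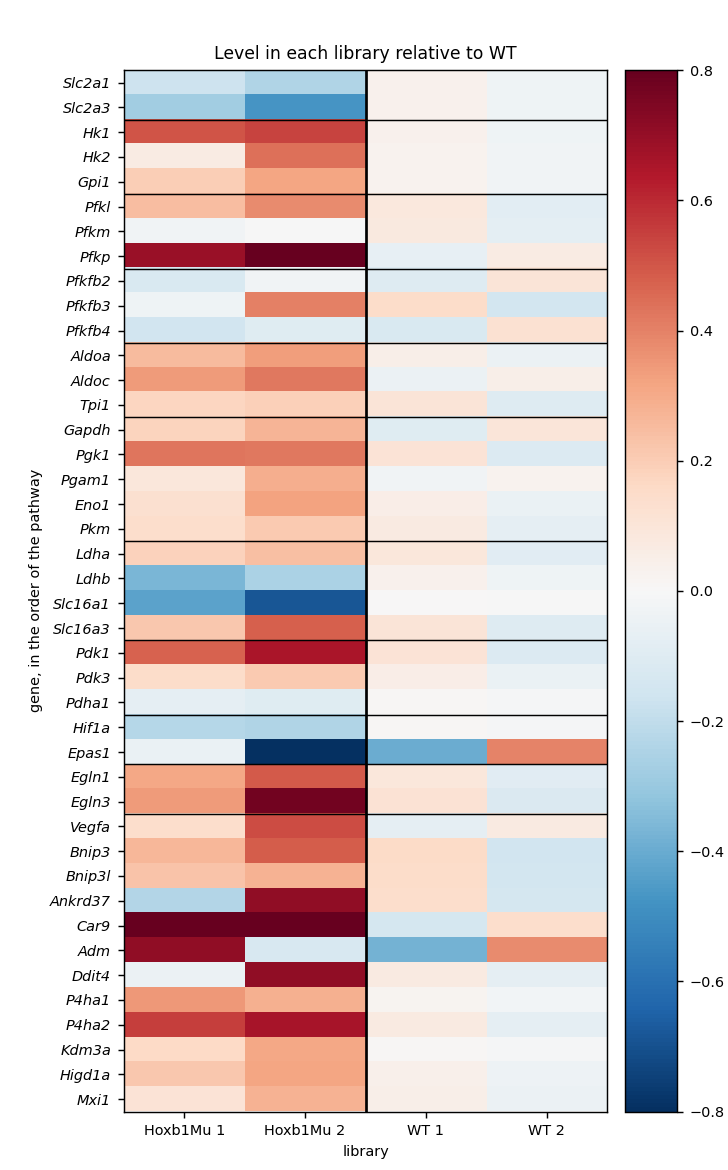
Level of each of the 42 genes in each library, as log2(normalised count + 1) minus the mean of the WT libraries, with red above and blue below that mean and colours ending at ±0.8. Hoxb1Mu 2 has the deeper colour in most rows, and the rows of Slc2a1, Slc2a3, Ldhb, Slc16a1 and Hif1a are blue in both Hoxb1Mu libraries.

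At the end of the path, the lactate genes moved in opposite directions. Ldha, the subunit of lactate dehydrogenase that is a HIF target, had 85092 and 88598 normalised counts in Hoxb1Mu, against 79626 and 70408 in WT, and was called (log2 fold change 0.21 ± 0.07, DESeq2 adjusted p = 0.030). Without WT 2 its log2 fold change was 0.125, and it was called in 1 of the 4 fits that left out a library. Ldhb, the heart-type subunit, had 775 and 836 in Hoxb1Mu, against 1023 and 973 in WT, and was not called (-0.31 ± 0.08, DESeq2 adjusted p = 0.15). Per kilobase of exon, Ldha was 98.1% and 98.1% of their sum in Hoxb1Mu, against 97.4% and 97.2% in WT. Slc16a1 (MCT1, chr3:104638668-104658462), a transporter that carries lactate and pyruvate in either direction, had 19877 and 16616 in Hoxb1Mu, against 26818 and 26600 in WT. It was the lowest relative to WT among the called genes of the 42 (log2 fold change -0.56 ± 0.08, DESeq2 adjusted p = 7.94e-09). Slc16a3 (MCT4), the lactate exporter of highly glycolytic cells and a HIF target, had 14816 and 17760 in Hoxb1Mu, against 13706 and 11848 in WT, and was not called (0.35 ± 0.10, DESeq2 adjusted p = 0.25). The balance between both transporters did not overlap between the groups. Per kilobase of exon, Slc16a1 was 61.7% and 52.9% of their sum in Hoxb1Mu, against 70.2% and 73.0% in WT. For such shares, 2 against 2 libraries cannot give an exact 2-sided permutation p below 0.33. The chaperone Emb, which brings monocarboxylate transporters to the membrane, was also called lower (20705 and 16361 in Hoxb1Mu, against 27597 and 30118 in WT, log2 fold change -0.65 ± 0.11, DESeq2 adjusted p = 0.015), whereas Bsg, the other such chaperone, had 17201 and 17509 in Hoxb1Mu, against 16955 and 16232 in WT (0.07 ± 0.04). Slc16a1 and Emb were lowest in Hoxb1Mu 2, the library with the lowest yolk sac endoderm markers, and the part of these cells in the result was not tested.

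Pyruvate enters mitochondrial oxidation through pyruvate dehydrogenase, which its kinases switch off. Pdk1 (chr2:71873224-71903858), the kinase induced by HIF, had 5834 and 6607 normalised counts in Hoxb1Mu, against 4535 and 3900 in WT, and was 1.47-fold higher (log2 fold change 0.56 ± 0.09, DESeq2 adjusted p = 2.70e-06). Pdk3 had 2420 and 2529 in Hoxb1Mu, against 2267 and 2110 in WT, and was not called (0.18 ± 0.06, DESeq2 adjusted p = 0.28). Per kilobase of exon, Pdk1 made up 44.3% and 46.2% of the sum of both kinases in Hoxb1Mu, against 39.7% and 37.8% in WT. Pdha1, a subunit of the enzyme that they act on, had 7194 and 7059 in Hoxb1Mu, against 7602 and 7498 in WT, a difference that was not called (-0.08 ± 0.04).

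**Figure D3:**
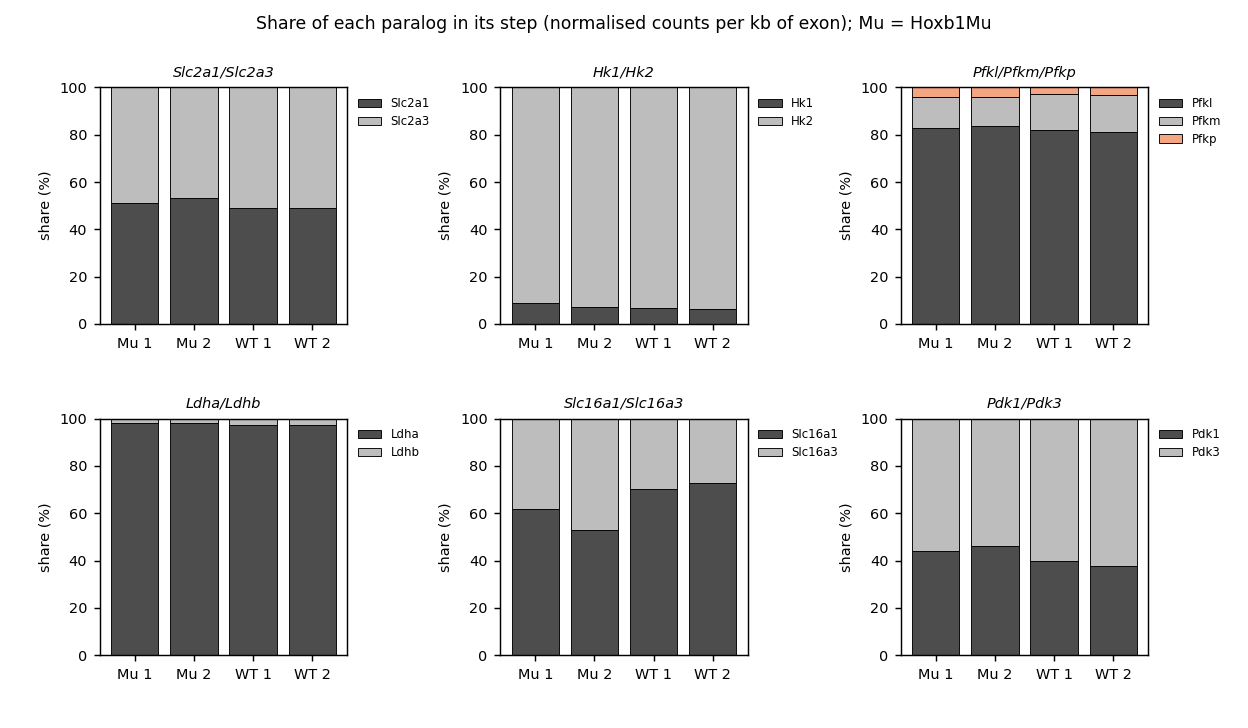
Share of each paralog in the summed normalised counts per kilobase of exon of its step, in percent (vertical axis), for 6 steps and the 4 libraries (Mu, Hoxb1Mu). Slc16a1 (dark) takes less of its step in both Hoxb1Mu libraries, and Pdk1 more.

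Of the 2 HIF alpha subunits among the 42 genes, Hif1a was lower in Hoxb1Mu and Epas1 overlapped between the groups. Hif1a (chr12:73901375-73947530) had 8305 and 8260 normalised counts in Hoxb1Mu, against 9788 and 9698 in WT, and was called lower (log2 fold change -0.23 ± 0.04, DESeq2 adjusted p = 0.0007). Its libraries agreed closely within each group, and the DESeq2 log2 fold change stayed between -0.24 and -0.23 when a library was left out, although the adjusted p then passed in 0 of the 4 fits (0.15 to 0.55). Its exons overlap the annotated genes Gm49321 and Gm15283, and whether reads were counted by strand is not given in the sources used here. Epas1 (HIF-2 alpha), which is typical of endothelium, had 1431 and 314 in Hoxb1Mu, against 1129 and 1957 in WT. Hoxb1Mu 2 stood far below the other libraries, so that the log2 fold change of -1.15 ± 0.67 was not called (DESeq2 adjusted p = 0.78). The endothelial marker list averaged 0.12 and 0.05 above the WT mean in Hoxb1Mu 1 and Hoxb1Mu 2. Of the 10 genes in this list, 8 had a log2 fold change above 0, and in 5 both Hoxb1Mu libraries lay above WT. Tek, the only gene of the list with both below, was also lowest in Hoxb1Mu 2 (2242 and 1533 in Hoxb1Mu, against 2802 and 2857 in WT). The yolk sac endoderm markers were lowest there too (-0.52 and -1.61 relative to the WT mean). The part of either cell type in the level of Epas1 was not tested.

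The prolyl hydroxylases, which inactivate the HIF alpha subunits and are HIF targets themselves, were both called higher. Egln1 (PHD2), the main oxygen sensor, had 4866 and 5523 normalised counts in Hoxb1Mu, against 4182 and 3692 in WT (log2 fold change 0.40 ± 0.09, DESeq2 adjusted p = 0.0018). Egln3 (PHD3) had 792 and 1071 in Hoxb1Mu, against 677 and 578 in WT (0.56 ± 0.16, DESeq2 adjusted p = 0.0455). The groups did not overlap for either gene, and Hoxb1Mu 2 was the highest library for both. Without Hoxb1Mu 2 neither was called, and the DESeq2 log2 fold change of Egln3 was 0.34 (DESeq2 adjusted p = 0.999). Egln3 was called in 1 and Egln1 in 2 of the 4 fits that left out a library.

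All 12 HIF targets outside glycolysis had a log2 fold change above 0, with a median log2 fold change of 0.30. In 9 both Hoxb1Mu libraries lay above WT and in 3 (Ankrd37, Adm and Ddit4) the groups overlapped, where 26.4% of all genes lay above. Of the 11 with an adjusted p, DESeq2 called 3 higher (2.01% of all genes), each of which encodes an enzyme that needs oxygen and oxoglutarate. P4ha2 (chr11:54100095-54131665), a catalytic subunit of collagen prolyl hydroxylase, had 2009 and 2155 normalised counts in Hoxb1Mu, against 1434 and 1303 in WT, and was 1.52-fold higher (log2 fold change 0.61 ± 0.08, DESeq2 adjusted p = 1.88e-06). Its relative P4ha1 had 6126 and 5867 in Hoxb1Mu, against 4882 and 4735 in WT (0.32 ± 0.05, DESeq2 adjusted p = 0.00012). Kdm3a, a histone demethylase, had 5489 and 6089 in Hoxb1Mu, against 4942 and 4873 in WT (0.24 ± 0.06, DESeq2 adjusted p = 0.033).

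Of the targets that were not called, Car9, a carbonic anhydrase that is nearly silent in the presence of oxygen, showed the widest relative gap at a very low level. It had 43.1 and 47.2 normalised counts in Hoxb1Mu, against 18.1 and 22.1 in WT, a 2.25-fold difference (log2 fold change 1.13 ± 0.30), and DESeq2 gave it no adjusted p because of its low counts. Vegfa, the angiogenic growth factor, had 2815 and 3663 in Hoxb1Mu, against 2425 and 2684 in WT (0.33 ± 0.13, DESeq2 adjusted p = 0.10). Its log2 fold change was 0.52 without Hoxb1Mu 1 and 0.14 without Hoxb1Mu 2. Bnip3 and Bnip3l, which mark mitochondria for removal, had 1165 and 1355 and 7917 and 8182 in Hoxb1Mu, against 1078 and 871 and 7465 and 6106 in WT, with log2 fold changes of 0.37 and 0.25 (0.22 and 0.11 without WT 2). Higd1a, a mitochondrial protein, had 1973 and 2112 in Hoxb1Mu, against 1742 and 1652 in WT, and Mxi1, a Myc antagonist, had 777 and 872, against 744 and 697. Ddit4, an inhibitor of mTOR, had 2973 and 5020 in Hoxb1Mu, against 3230 and 2915 in WT, so that a single library, Hoxb1Mu 2, carried its mean difference. The same library carried that of Ankrd37 (142 and 273, against 184 and 151), whereas Adm, adrenomedullin, was highest in Hoxb1Mu 1 (293 and 163, against 137 and 233).

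The order of the libraries within each group was shared by most of these genes. Hoxb1Mu 2 was above Hoxb1Mu 1 in 33 of the 42 genes (78.6%, beside 49.6% of all tested genes), and WT 1 was above WT 2 in 32 (76.2%, beside 48.9%). The members thus varied together between libraries of the same genotype. What made these libraries differ was not tested, and the labels give no dissection, litter or date by which to compare them.

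Genes of the same pathways outside the 42 were examined from wider lists, which were also chosen with earlier results of these data known. Of 28 other glycolysis genes in the table, 22 had a DESeq2 adjusted p, and 2 were called higher and 1 lower, beside 2.01% and 2.71% of all genes. The median log2 fold change of the 28 was -0.13. Called were the enolase Eno3 (2667 and 2583 normalised counts in Hoxb1Mu, against 2176 and 2012 in WT, DESeq2 adjusted p = 0.0093), the phosphoglucomutase Pgm2 (3101 and 3137, against 2463 and 2280, DESeq2 adjusted p = 0.00023) and Emb, given above. None of 15 other genes of pyruvate entry and gluconeogenesis was called (median -0.12). The smallest limma p there belonged to the pyruvate dehydrogenase subunits Dlat and Dld, with log2 fold changes of -0.17 ± 0.05 and -0.17 ± 0.05. None of 8 pentose phosphate genes was called either (median -0.05), with Rpe at -0.28 ± 0.08 and Taldo1 at -0.11 ± 0.05. Among 17 other regulators of HIF, 0 were called (median -0.09). Hif3a, an alpha subunit that can oppose the others, had 501 and 506 in Hoxb1Mu, against 389 and 358 in WT (0.43 ± 0.10, DESeq2 adjusted p = 0.14), and Tceb2, a partner of the von Hippel-Lindau protein, was at -0.16 ± 0.05.

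The other HIF targets in the table numbered 45, and their median log2 fold change was 0.14, with 32 genes above 0, 20 whose Hoxb1Mu libraries lay above WT and 5 below (26.4% and 27.1% of all genes). DESeq2 gave 44 of them an adjusted p and called 7 higher and 0 lower, beside 2.01% and 2.71% of all genes. Loxl2, a collagen cross-linking enzyme, had the smallest adjusted p (6439 and 6288 normalised counts in Hoxb1Mu, against 4872 and 4549 in WT, log2 fold change 0.43 ± 0.05, DESeq2 adjusted p = 4.99e-08). Gys1, glycogen synthase, had 3194 and 3473 in Hoxb1Mu, against 2346 and 2329 in WT (0.51 ± 0.06, DESeq2 adjusted p = 3.27e-07). Ndufa4l2, a mitochondrial protein, had the widest relative gap of the 7, with 294 and 331 in Hoxb1Mu, against 198 and 168 in WT (0.77 ± 0.14, DESeq2 adjusted p = 0.029). The others were the lipoprotein receptor Vldlr (0.51), the secreted glycoprotein Stc2 (0.54), the mitochondrial protein Fam162a (0.45) and the adenylate kinase Ak4 (0.28).

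**Figure D4:**
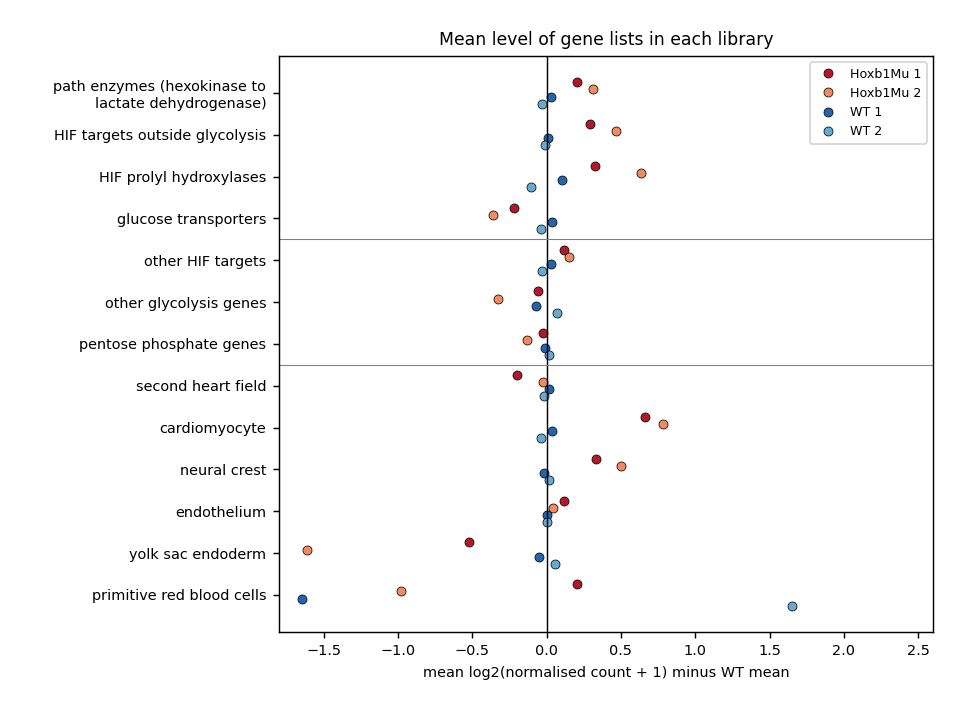
Mean of log2(normalised count + 1) over the genes of each list, minus the mean of the WT libraries (horizontal axis), for each library. The upper block holds roles of the 42 genes, the middle block other genes of the same pathways and the lower block markers of cell types, of which cardiomyocyte markers are higher, yolk sac endoderm markers lower and red blood cell markers wide apart between the WT libraries.

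Set beside the marker lists, path enzymes averaged 0.20 and 0.31 above the WT mean in Hoxb1Mu 1 and Hoxb1Mu 2, and HIF targets outside glycolysis 0.29 and 0.47. Cardiomyocyte markers (0.66 and 0.78) and neural crest markers (0.33 and 0.50) stood in the same direction and order. Of the 11 neural crest genes, 9 had a log2 fold change above 0 and 2 below (Snai2 at -0.50 and Foxd3 at -0.11). Endothelial markers stood slightly above WT in the reverse order (0.12 and 0.05). Yolk sac endoderm markers stood in the opposite direction (-0.52 and -1.61), in the same order of libraries as the glucose transporters (-0.22 and -0.36). The part of these cell types in the levels of the 42 genes was not tested.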

How the data were processed

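RNA-seq of 2 Hoxb1Mu and 2 WT libraries was analysed, with groups from the genotype in the labels. Per the labels, linear amplification of cDNA (Ovation RNA-seq V2, primed at random and at poly-A tails) came first and an Ovation Ultralow kit then gave the libraries, where the study's methods name an Illumina TruSeq kit. Amplified reads carry no molecular identifiers, so they are not independent molecules. Per the submitters' processing notes, bcl2fastq 2.17.1.14, STAR 2.5.2 on mm10, HTSeq, R 3.3.4 and DESeq2 were used. The annotation release and the strand setting are not given in the sources used here. The deposited values are a normalised signal per gene, for which the authors scaled the reads counted per gene by 1 size factor for each library. The table also holds the authors' mean, log2 fold change, statistic, p-value and adjusted p-value, which were not used.

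Whole reads could be recovered, since 100% of values were whole multiples of their library's step within 0.001 reads. The main test was limma-trend (limma 3.58.1, R 4.3.3) on normalised values after log2(value + 1), a pseudocount of 1. It covered 15760 genes whose mean reached 10 (43 did not), with Benjamini-Hochberg adjustment over all of them and a threshold of 0.05. Fold changes on this scale understate the change of low genes. DESeq2 1.42.0, which left 3972 genes without an adjusted p, and edgeR 4.0.16 (quasi-likelihood, TMM, 15732 genes) were run on the recovered reads. All tests were 2-sided, and the tools were tested on simulated data. Other alternatives were a pseudocount of 8, no filter, a mean of at least 50, equal library totals and leaving out each library.

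The members and lists were chosen with earlier results of these data known. All members were named, and of the wider lists those called by DESeq2 or, where none was called, the 2 with the smallest limma p. Bsg, the partner of Emb, was added after its values were seen. Positions, exon lengths (union of all annotated exons) and shared 50-base words came from GENCODE vM21 (GRCm38, the assembly of mm10), matched by symbol for 15391 genes (97.4%) and for all members, and upstream sequences from RefSeq on GRCm38.p6.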

Additional observations from a re-analysis of the deposited data

How the results depend on the processing

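The counts of calls turned on the tool and on single libraries. limma called 0 genes and 0 of the 42 members with all libraries, and also with a pseudocount of 8, no filter, a mean of at least 50 or equal library totals, as did edgeR, whereas DESeq2 called 556 genes and 17 members. With each library left out in turn, limma called between 0 and 884 genes and between 0 and 18 members (884 and 18 without Hoxb1Mu 1, 44 and 2 without Hoxb1Mu 2), with the lone library assumed to vary like the other group. The same fits with DESeq2, chosen after seeing the data, called between 71 and 589 genes and between 4 and 19 members. The cause was not tested. The median log2 fold change of the glycolysis members was 0.20 (0.14 to 0.28 with a library left out), and that of the HIF members outside glycolysis 0.30 (0.22 to 0.40 with a library left out, 0.33 with equal totals). Pfkm turned to 0.015 with equal totals. Leaving out a library turned the sign of 6 genes, which are those whose groups overlap, apart from Pfkfb4 and Epas1: Pfkm (-0.090 to 0.064), Pfkfb2 (-0.18 to 0.027), Pfkfb3 (-0.035 to 0.40), Ankrd37 (-0.23 to 0.71), Adm (-0.13 to 0.71) and Ddit4 (-0.046 to 0.71). For Adm it did so without Hoxb1Mu 1 (-0.13) and without WT 1 (-0.089). All other members kept their direction under the alternatives that could be run; a mean of at least 50 left out Car9. Without a length correction the difference in the share of Pfkl was -0.58 percentage points, against 1.69 per kilobase of exon, since Pfkp has the longest annotated exons of the 3. No paired analysis was possible because the labels give the libraries of both groups no shared replicate numbers. With 2 libraries a group, few degrees of freedom limit each test.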
